A study of Mus musculus with 4 samples.

Results

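The ratio of acetylated histone H3 at gene promoters between 2 pressure-overloaded mouse left ventricles, the TAC TSA library over the TAC Veh library, is described here across all promoters with a mean raw count of at least 10 over the 4 libraries of the series. Of 31594 RefSeq IDs in the deposited count table, 30721 met this rule, and after each gene was represented by its most counted ID, 22835 of 23631 genes did. Just inside the rule stood 1810009J06Rik, with 12 counts in TAC TSA, 6 in TAC Veh, 14 in Sham TSA and 8 in Sham Veh, and just outside it stood Cldn34b4, Cldn34c4 and Esp24, each with a mean of 9.75 counts. The TAC TSA library came from ventricle after transverse aortic constriction (TAC), an operation in which a narrowed aorta makes the ventricle pump against raised pressure, with trichostatin A (TSA) in DMSO at 0.6 mg per kg per day. The TAC Veh library came from the same surgery with the DMSO vehicle alone. Sham TSA and Sham Veh had the sham operation with the same 2 treatments. All mice, per the labels, were C57BL6 males aged 10 to 12 weeks at surgery or injection, injections were subcutaneous, 2 times a day for 4 weeks, and the antibody was against acetylated histone H3. Each group is 1 library. The labels do not say whether a library is 1 animal or pooled animals, and both sham labels, but neither TAC label, cite an earlier deposit, so a difference between TAC and sham libraries and one between times of library making cannot be told apart.

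Acetyl groups on the tail of histone H3 loosen its hold on DNA and are read by bromodomain proteins, so acetylated H3 marks promoters that are open to transcription. Histone deacetylases (HDACs) remove these groups, and TSA blocks many, but not all, of the zinc-dependent HDACs. Which HDACs it reached in these ventricles was not measured. In the heart, class II HDACs bind and restrain MEF2 factors, which drive muscle genes, and pressure overload is known for a return of fetal muscle genes and for fibrosis.

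In the TAC TSA library a share of heart muscle promoters carried more acetylated H3, relative to the bulk of promoters, than in the TAC Veh library. Of 251 promoters in 14 heart muscle lists, 57 were higher by the rule given below and 0 lower, and in the muscle ubiquitin ligase list 12 of 20 were higher. The lists cover thick filament, thin filament, Z-disc, sarcoplasmic reticulum, membrane calcium and sodium transport, potassium channels, pacemaker channels with connexins and intercalated disc. They also cover cardiac transcription factors, fatty acids, metabolic regulators, energy shuttle, muscle ubiquitin ligases and cardiomyocyte markers. Glucose (2 of 32 higher), respiratory chain (2 of 33) and fetal and hypertrophy lists (1 of 21) were left out. A smaller share of matrix and immune promoters carried less, with 9 of 143 lower in the matrix and fibroblast lists and 8 of 168 in the immune lists. The RUNX list was counted with the matrix and fibroblast lists, so Runx1 is among the 9. Myh6, the adult alpha myosin heavy chain, had 98.6 scaled CPM in TAC TSA and 45.4 in TAC Veh. Runx1, a transcription factor of blood and of injured heart muscle, had 42.9 in TAC TSA and 85.1 in TAC Veh. Below, apart means a difference of 1.5-fold or more whose exact 95% interval for counting error excluded 1. Since each side is 1 library, this is a rule of size and not a test between treatments, and the spread between animals is unknown.

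Of the 22835 promoters, 927 (4.06%) were apart on the higher side in TAC TSA and 78 (0.342%) on the lower side. Among the 15669 with a mean count of at least 100, called strong here, 182 (1.16%) were higher and 43 (0.274%) lower. The median log2 ratio over all promoters was 0.00, and over strong ones -0.05. The heart muscle lists held 1.48% of the strong promoters and 49 of the 182 strong higher ones. These counts are with TMM scaling, which centres the bulk of promoters. With the libraries scaled on olfactory and vomeronasal receptor promoters (receptor scaling) the balance turned, with 5 of the 251 higher and 9 lower. With a loess curve of the ratio on mean count subtracted, 56 were higher and 1 lower. The matrix and fibroblast lists had 0 higher and 9 lower with TMM and with loess, and 0 higher and 68 lower with receptor scaling. The immune lists had 2 higher and 8 lower with TMM, 0 higher and 10 lower with loess, and 0 higher and 66 lower with receptor scaling.

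**Figure D1:**
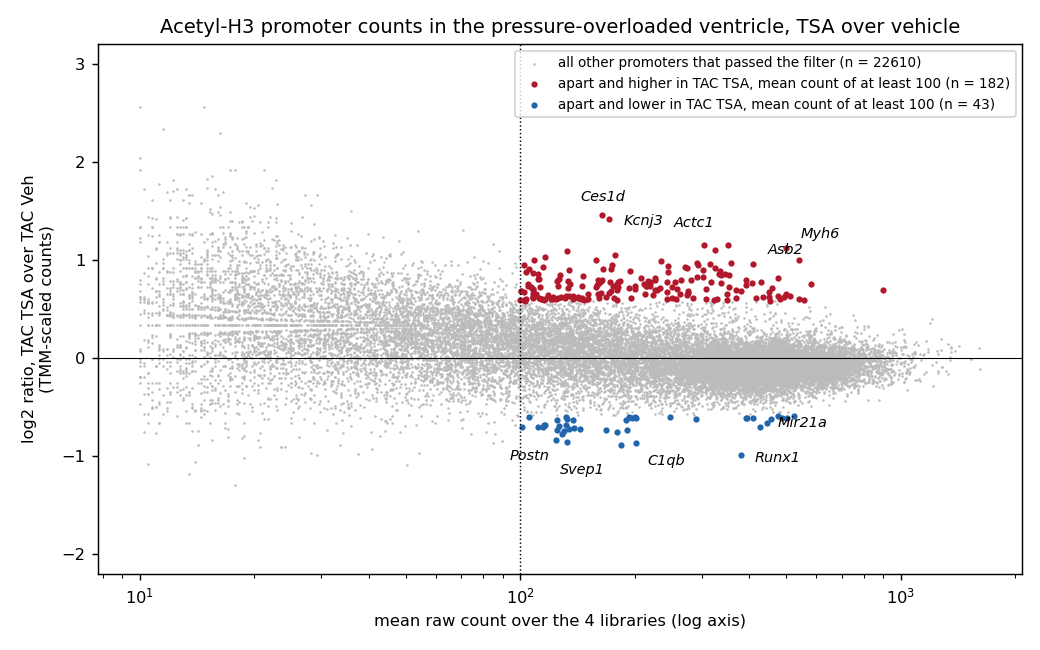
Each point is 1 promoter, with its mean raw count over the 4 libraries on the x axis (log scale) and its log2 ratio of TAC TSA over TAC Veh on the y axis. Red points are the 182 strong promoters apart and higher, blue points the 43 apart and lower, and the cloud of other promoters tilts upward at low counts.

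Depth and background differed between the libraries. The total promoter count was 6842296 in TAC TSA, 8873302 in TAC Veh, 9905553 in Sham TSA and 9612616 in Sham Veh. Olfactory and vomeronasal receptor promoters, 1455 genes with no known role in heart muscle, held 0.677% of gene counts in TAC TSA, 0.505% in TAC Veh, 0.427% in Sham TSA and 0.420% in Sham Veh. Of the 1274 receptor promoters that passed the count rule 179 were higher and 0 lower, with a median log2 ratio of 0.41. Scaling the libraries on these receptor promoters moves every log2 ratio by -0.38, and the counts over all promoters are then 100 higher and 3289 lower. Values below are relative to the bulk of promoters (TMM scaling), and the receptor-scaled median is given beside each list.

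Weak promoters made up most of the higher calls. The median log2 ratio was 0.42 in the lowest of 10 equal bins of mean count, where 283 promoters were higher, and -0.07 in the highest bin, where 1 was. After a loess curve of the ratio on mean count was subtracted, the split over all promoters was 311 higher and 253 lower. Among strong promoters it was then 170 higher and 64 lower. Keratin and protocadherin families had calls of the same kind. Of 107 keratin and keratin-associated promoters 14 were higher and 0 lower (median 0.32, loess 0.08, receptor-scaled -0.07), and of 57 clustered protocadherin promoters 13 were higher and 0 lower (median 0.27, loess 0.08, receptor-scaled -0.11). With loess scaling 1 keratin promoter was higher and 2 lower, and 5 protocadherin promoters were higher and 2 lower.

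**Figure D2:**
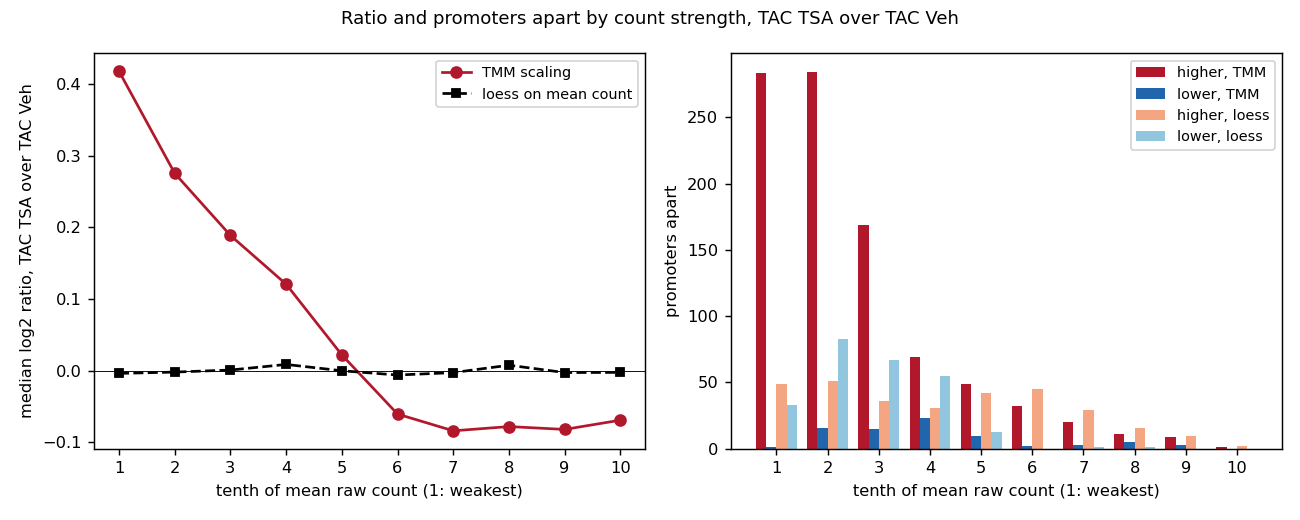
Promoters are split into 10 equal bins of mean raw count, weakest first on the x axis. The left panel gives the median log2 ratio of TAC TSA over TAC Veh with TMM scaling (0.42 in the weakest bin, -0.07 in the strongest) and after loess on mean count, and the right panel the number of promoters apart in each direction.

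Of 15 thick filament promoters 5 were apart and higher and 0 lower, with a median log2 ratio of 0.56 (receptor-scaled 0.17). With loess 8 were higher, with total counts 9 and with receptor scaling 1. Myh6 stood at 96.0 scaled CPM in Sham TSA and 81.5 in Sham Veh, so that TAC Veh was the low library of the 4 (TAC TSA over TAC Veh 1.12, 0.91 to 1.33). The kinase Mylk3, which phosphorylates the ventricular myosin light chain, had 60.3 in TAC TSA and 31.0 in TAC Veh (0.96, 0.70 to 1.23), with 52.1 in Sham TSA and 58.7 in Sham Veh. Titin, Ttn, the spring of the sarcomere, was at 0.79 (0.52 to 1.07), and cardiac myosin-binding protein C, Mybpc3, at 0.68 (0.46 to 0.90). For Mybpc3 both TSA libraries were high, with 78.2 in TAC TSA against 48.7 in TAC Veh, and 68.8 in Sham TSA against 49.7 in Sham Veh. The M-band protein gene Myom2 was the fifth member apart (0.59, 0.26 to 0.93). Ventricular light chains Myl2 (0.58, 0.35 to 0.80) and Myl3 (0.58, 0.37 to 0.79) were just under 1.5-fold. The fetal and slow myosin Myh7 was not apart, with 44.4 in TAC TSA, 40.1 in TAC Veh, 34.6 in Sham TSA and 32.0 in Sham Veh (0.15, -0.12 to 0.41).

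Thin filament promoters had 5 of 14 higher and 0 lower (median 0.30, receptor-scaled -0.08). Cardiac actin, Actc1, had 71.4 scaled CPM in TAC TSA, 32.2 in TAC Veh, 63.9 in Sham TSA and 58.4 in Sham Veh (1.15, 0.90 to 1.40). Leiomodins Lmod2 (0.85, 0.59 to 1.11) and Lmod3 (0.82, 0.50 to 1.13), which set thin filament length, cardiac troponin T, Tnnt2 (0.67, 0.45 to 0.89), and cardiac troponin I, Tnni3 (0.61, 0.40 to 0.81), were also higher. Skeletal actin, Acta1, a gene that returns under overload, went the other way without reaching 1.5-fold. It had 101 raw counts in TAC TSA, 181 in TAC Veh, 105 in Sham TSA and 113 in Sham Veh (-0.51, -0.87 to -0.15).

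At the Z-disc, which anchors the thin filaments, 5 of 28 promoters were higher and 0 lower (median 0.38, receptor-scaled -0.01). Csrp3, the muscle LIM protein, had 44.6 scaled CPM in TAC TSA and 27.0 in TAC Veh (0.72, 0.43 to 1.02). Telethonin, Tcap, was at 0.72 (0.49 to 0.96), alpha-actinin, Actn2, at 0.69 (0.39 to 0.99), the PDZ and LIM protein gene Ldb3 at 0.66 (0.46 to 0.86) and Xirp2 at 0.59 (0.18 to 1.00). Of the 28 promoters 27 had a ratio above 0 with TMM scaling. Tcap lies beside Pnmt, which was also higher (0.60), and such neighbours may share reads. Intercalated disc genes, which couple heart muscle cells end to end, had 4 of 17 higher and 0 lower (median 0.46, receptor-scaled 0.07). They were the Popeye domain genes Popdc2 (0.82, 0.60 to 1.03) and Bves (0.93, 0.47 to 1.40), the desmosomal cadherin Dsg2 (0.91, 0.53 to 1.29) and melusin, Itgb1bp2 (0.76, 0.25 to 1.28).

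Promoter windows of 4 higher genes are shown because they hold letters that muscle transcription factors are known to bind. They run from 250 bases before to 50 after the RefSeq start on GRCm38.p6, 5′ to 3′ on the gene's strand. Capitals mark the TATA box (TATAAA), the MEF2 motif, the CArG box of serum response factor and the MCAT letters of TEAD factors (GGAATG), each searched on both strands. The windows lie at chr14:54966558-54966857 for Myh6, chr2:114052826-114053125 for Actc1, chr11:5803747-5804046 for Pgam2 and chr3:155055358-155055657 for Tnni3k, all on the minus strand. The Actc1 window holds CArG and TATA letters. Those of Pgam2, the muscle phosphoglycerate mutase, and Tnni3k, a kinase that binds troponin I, hold MEF2 letters. The TATA letters begin at base 34 after the RefSeq start in Actc1 and at base 2 in Myh6, and so not before that start. Tnni3k had 20.2 scaled CPM in TAC TSA, 9.9 in TAC Veh, 22.8 in Sham TSA and 20.8 in Sham Veh (1.03, 0.56 to 1.51).
Myh6: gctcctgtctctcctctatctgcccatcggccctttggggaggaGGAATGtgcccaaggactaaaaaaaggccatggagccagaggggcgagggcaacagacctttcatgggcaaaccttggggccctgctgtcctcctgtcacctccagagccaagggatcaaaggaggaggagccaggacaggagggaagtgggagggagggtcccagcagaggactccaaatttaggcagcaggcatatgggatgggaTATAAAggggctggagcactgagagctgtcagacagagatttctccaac
Actc1: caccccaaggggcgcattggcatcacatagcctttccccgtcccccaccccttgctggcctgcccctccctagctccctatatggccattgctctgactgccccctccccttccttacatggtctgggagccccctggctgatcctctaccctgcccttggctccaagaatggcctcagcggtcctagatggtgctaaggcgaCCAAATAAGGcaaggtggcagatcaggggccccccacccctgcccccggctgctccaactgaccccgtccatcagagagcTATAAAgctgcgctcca
Pgam2: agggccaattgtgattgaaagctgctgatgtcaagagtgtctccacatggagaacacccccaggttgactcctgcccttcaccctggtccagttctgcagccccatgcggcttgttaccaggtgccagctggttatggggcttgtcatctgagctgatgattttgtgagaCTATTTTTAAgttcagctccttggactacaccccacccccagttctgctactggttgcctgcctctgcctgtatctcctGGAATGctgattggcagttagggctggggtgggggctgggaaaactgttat
Tnni3k: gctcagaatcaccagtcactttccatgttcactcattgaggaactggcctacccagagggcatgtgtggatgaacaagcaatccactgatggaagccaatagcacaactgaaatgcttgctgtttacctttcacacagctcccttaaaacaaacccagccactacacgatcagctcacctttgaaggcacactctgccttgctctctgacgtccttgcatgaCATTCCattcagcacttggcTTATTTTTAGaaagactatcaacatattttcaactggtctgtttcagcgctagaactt

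Calcium handling promoters were split. In the sarcoplasmic reticulum list 3 of 19 were higher and 0 lower (median 0.16, receptor-scaled -0.22). Ryr2, the calcium release channel, had 46.0 scaled CPM in TAC TSA, 26.9 in TAC Veh, 46.3 in Sham TSA and 43.9 in Sham Veh (0.78, 0.48 to 1.07). Phospholamban, Pln, the brake on the calcium pump, was at 0.61 (0.37 to 0.86), and triadin, Trdn, which holds the release complex together, at 0.63 (0.22 to 1.05). The calcium pump itself, Atp2a2, had 115.1 in TAC TSA and 101.3 in TAC Veh (0.18, 0.02 to 0.35) and was not apart. At the cell membrane 2 of 17 calcium and sodium transport promoters were higher and 0 lower (median 0.17, receptor-scaled -0.21). They were the L-type calcium channel Cacna1c (0.86, 0.61 to 1.11) and the sodium pump subunit Atp1b1 (0.76, 0.52 to 1.01).

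Potassium channels, which repolarise the cell, had 7 of 19 promoters higher and 0 lower (median 0.53, receptor-scaled 0.14). Kcnj3, a subunit of the channel opened by acetylcholine, had 33.5 scaled CPM in TAC TSA, 12.6 in TAC Veh, 37.5 in Sham TSA and 25.8 in Sham Veh (1.41, 1.02 to 1.82). Here both TSA libraries were above both vehicle libraries, with TAC Veh lowest. Kcnj11, the pore of the ATP-sensitive channel, had 76.8 in TAC TSA and 39.3 in TAC Veh (0.97, 0.73 to 1.20), with 57.0 in Sham TSA and 58.7 in Sham Veh. The regulatory subunit Abcc8 of that channel family was at 0.62 (0.23 to 1.01). The background potassium channel Kcnk3 was at 0.97 (0.71 to 1.24), and its neighbour Gm9899, which overlaps or lies near it, at 0.89. Kcna4 (0.89, 0.32 to 1.47) and Kcnd2 (0.60, 0.17 to 1.03), both of transient outward current, and Kcne1 (0.72, 0.29 to 1.15), a subunit of the slow delayed rectifier, completed the 7. Among pacemaker channels, Hcn4 had 35.5 scaled CPM in TAC TSA, 21.1 in TAC Veh, 28.7 in Sham TSA and 30.2 in Sham Veh (0.75, 0.42 to 1.09).

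Cardiac transcription factor promoters had 6 of 27 higher and 0 lower (median 0.14, receptor-scaled -0.24). Tbx5, a T-box factor of heart development, had 53.4 scaled CPM in TAC TSA, 27.7 in TAC Veh, 57.4 in Sham TSA and 48.7 in Sham Veh (0.95, 0.67 to 1.23). The others were Myocd, the coactivator of serum response factor (0.79, 0.51 to 1.08), the muscle methyltransferase Smyd1 (0.79, 0.47 to 1.11), the homeobox factors Nkx2-5 (0.78, 0.52 to 1.04) and Irx4 (0.74, 0.43 to 1.05), and Prdm16 (0.63, 0.41 to 0.84). Other factors were not apart. Mef2a, a factor that class II HDACs restrain, had 104.4 in TAC TSA and 109.8 in TAC Veh (-0.07, -0.24 to 0.09), Gata4 had 108.1 in TAC TSA and 108.0 in TAC Veh (0.00, -0.16 to 0.17), and Srf was at -0.04 (-0.21 to 0.13). These 3, like Myl2, Myl3, Fbxo32, Klhl40 and Tnni3k, were chosen after their values were seen.

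The muscle ubiquitin ligase list, mostly of ligases and adaptors that act on muscle proteins, had the highest share of members apart after the cardiomyocyte markers. It also holds Foxo1, Foxo3, Foxo4 and Mdm2, none of them apart. Of 20 promoters 12 were higher and 0 lower, with a median log2 ratio of 0.70 (receptor-scaled 0.32) and a sham median of 0.01. Asb2, a SOCS box adaptor of muscle, had 80.2 scaled CPM in TAC TSA, 41.4 in TAC Veh, 69.1 in Sham TSA and 72.7 in Sham Veh (0.95, 0.73 to 1.18). Its relatives Asb11 (0.90, 0.51 to 1.29), Asb12 (1.25, 0.39 to 2.16), Asb14 (0.79, 0.40 to 1.19) and Asb18 (0.74, 0.28 to 1.21) were higher as well. So were the kelch genes Klhl38 (0.83, 0.55 to 1.11), Klhl31 (0.76, 0.42 to 1.11) and Klhl41 (0.72, 0.41 to 1.03). All 3 MuRF ligases were higher: Trim63 (0.81, 0.50 to 1.13), Trim55 (0.79, 0.45 to 1.14) and Trim54 (0.62, 0.28 to 0.96). The F-box gene Fbxo40 (0.69, 0.11 to 1.27) was the twelfth. Atrogin-1, Fbxo32, known with Trim63 from muscle atrophy, was not apart, with 143.5 in TAC TSA and 122.0 in TAC Veh (0.23, 0.09 to 0.38). Klhl40 was not apart either (0.28, -0.02 to 0.57).

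Over all promoters 4.06% were higher, and over strong ones 1.16%. In the metabolic lists that follow, 1 or 2 higher members lie near the share over all promoters and above that over strong ones. Of 32 fatty acid promoters 2 were higher and 0 lower (median 0.13, receptor-scaled -0.25), or 5 higher with loess and with total counts. Fabp3, the fatty acid carrier of the heart muscle cell, had 113.9 scaled CPM in TAC TSA and 67.3 in TAC Veh (0.76, 0.58 to 0.94), and the transporter Cd36 was at 0.74 (0.50 to 0.98). Ppara, the nuclear receptor that switches on fatty acid oxidation, had 79.0 in TAC TSA, 46.1 in TAC Veh, 77.2 in Sham TSA and 72.3 in Sham Veh (0.78, 0.56 to 1.00). It was the 1 of 19 metabolic regulators apart (median 0.15, receptor-scaled -0.23), and its coactivator Ppargc1a was at 0.45 (0.24 to 0.67). Of 32 glucose promoters Pgam2 (0.88, 0.63 to 1.14) and the insulin-sensitive transporter Slc2a4 (0.61, 0.39 to 0.82) were higher, and 0 were lower (median 0.03, receptor-scaled -0.35). In the respiratory chain list 2 of 33 were higher and 0 lower (median 0.01, receptor-scaled -0.38), and both were muscle forms of cytochrome oxidase subunits, Cox8b (0.83, 0.57 to 1.09) and Cox6a2 (0.61, 0.34 to 0.88). In the energy shuttle list 3 of 14 were higher and 0 lower (median 0.10, receptor-scaled -0.29). These were myoglobin, Mb (0.79, 0.56 to 1.02), and the creatine kinases Ckm (0.68, 0.39 to 0.97) and Ckmt2 (0.60, 0.34 to 0.87).

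Over all strong promoters the highest lower bound belonged to Ces1d, a carboxylesterase of lipid droplets. It had 148 counts in TAC TSA, 68 in TAC Veh, 252 in Sham TSA and 190 in Sham Veh (1.46, 1.03 to 1.89). On the scaled level this is 29.4 CPM in TAC TSA and 10.7 in TAC Veh. The next were Kcnj3, Myh6, Actc1, Fam174b (1.15, 0.88 to 1.42) and C130080G10Rik (1.10, 0.84 to 1.36), a transcript beside Actc1. D830005E20Rik, a transcript beside Trdn, was at 1.06 (0.69 to 1.42), and Fsd2 at 0.99 (0.69 to 1.29). Of the 225 strong promoters apart, 33 had an overlapping gene or one within 2000 bases that was apart the same way, and such pairs are not independent.

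**Figure D3:**
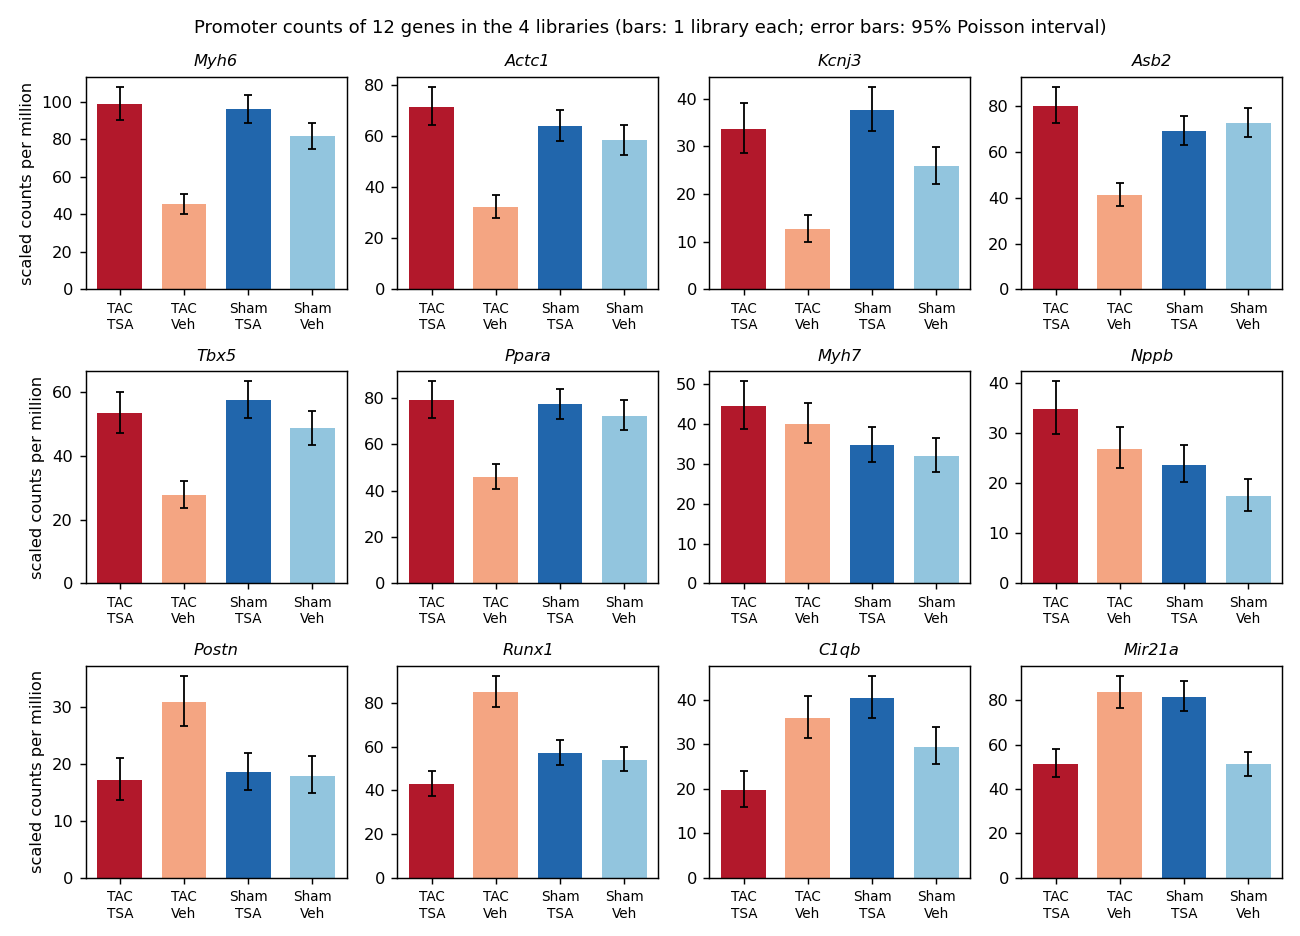
Bars are scaled CPM of 12 promoters in TAC TSA, TAC Veh, Sham TSA and Sham Veh, 1 library each, with 95% Poisson intervals for counting error. In Myh6, Actc1, Kcnj3, Asb2, Tbx5 and Ppara the TAC Veh bar is the lowest of the 4, and in Postn and Runx1 it is the highest.

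Of 1041 microRNAs, each counted under its own RefSeq ID and not under a host gene's, 66 (6.34%) were higher and 5 lower, beside the 4.06% higher over all promoters (median 0.13, receptor-scaled -0.25). With loess scaling 23 were higher and 12 lower. The strong ones that were higher included some, but not all, of the known muscle microRNAs. Mir133b was higher only as a weak promoter, with a mean count of 23.75. Mir133a-2 had 26.2 scaled CPM in TAC TSA, 12.3 in TAC Veh, 26.0 in Sham TSA and 20.6 in Sham Veh (1.09, 0.68 to 1.52). At the same locus the host transcript Mir1a-1hg was at 0.86 (0.61 to 1.11) and Mir1a-1 at 0.72 (0.50 to 0.93). Mir1a-2 was at 0.92 (0.63 to 1.22), with Mir1b, which may share its reads, at 0.92. The 2 microRNAs encoded within myosin genes were higher with their hosts' locus. Mir208a, in Myh6, was at 0.69 (0.35 to 1.03), and Mir208b, in Myh7, had 222 raw counts in TAC TSA, 146 in TAC Veh, 324 in Sham TSA and 287 in Sham Veh (0.94, 0.63 to 1.25). Mhrt, a noncoding transcript of the same locus, was at 1.00 (0.80 to 1.20). Mir208b lies near the start of Mhrt, and Myh7 itself was not apart.

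Mir21a, a microRNA known from cardiac fibroblasts and injury, had 51.4 scaled CPM in TAC TSA, 83.6 in TAC Veh, 81.7 in Sham TSA and 51.2 in Sham Veh (-0.70, -0.92 to -0.49). Mir142, known from blood cells, was at -0.62 (-1.02 to -0.23), with Mir142b, which lies on the other strand of the same hairpin, at -0.60. The myeloid microRNA Mir223 had 28 counts in TAC TSA and 69 in TAC Veh (-0.97, -1.65 to -0.31), and Mir1933 had 22 counts in TAC TSA and 48 in TAC Veh (-0.79, -1.59 to -0.03). Mir101c, with 250.6 in TAC TSA, 155.2 in TAC Veh, 102.3 in Sham TSA and 93.5 in Sham Veh (0.69, 0.57 to 0.81), was the promoter apart with the highest mean count. The 4 libraries stood in the same order here as in the receptor promoters' share of counts (0.677%, 0.505%, 0.427% and 0.420%). The part of background in the Mir101c ratio was not tested. All of these microRNAs except Mir133a-2 and Mir21a were chosen after their values were seen. The mature sequences of 4 of these microRNAs, from RefSeq with GRCm38.p6, are shown with the seed, bases 2 to 8, in capitals. The 208a and 208b forms share the seed UAAGACG, so they group as 1 family, and the other 2 seeds differ from it and from each other.
miR-208a-3p: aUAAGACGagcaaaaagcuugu
miR-208b-3p: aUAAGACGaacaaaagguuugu
miR-21a-5p: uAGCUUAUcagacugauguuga
miR-142a-3p: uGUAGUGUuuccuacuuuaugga

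Matrix genes were among the promoters apart on the lower side. Of 36 matricellular and other matrix promoters 0 were higher and 4 lower (median -0.20, receptor-scaled -0.58). Postn, periostin, a matrix protein that activated fibroblasts secrete, had 17.1 scaled CPM in TAC TSA, 30.8 in TAC Veh, 18.5 in Sham TSA and 17.8 in Sham Veh (-0.85, -1.24 to -0.48). TAC Veh stood alone as the high library, and the other 3 lay between 17.1 and 18.5. Svep1, a large adhesion protein, had 22.6 in TAC TSA, 41.8 in TAC Veh, 25.3 in Sham TSA and 27.0 in Sham Veh (-0.89, -1.22 to -0.56). Cilp, a matrix protein that binds growth factors, was at -0.72 (-1.07 to -0.38), and the small proteoglycan Bgn at -0.61 (-0.92 to -0.30).

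Of 22 collagen promoters 0 were higher and 1 lower (median -0.27, receptor-scaled -0.66), with Col15a1 at -0.61 (-0.82 to -0.40). With loess (Col15a1 at -0.52) and with total counts 0 collagen promoters were apart. The fibrillar collagens Col1a1 (-0.27, -0.52 to -0.02) and Col3a1 (-0.27, -0.61 to 0.06) were not apart. Of 32 cross-linking enzymes and proteases 2 were lower and 0 higher (median -0.21, receptor-scaled -0.59). They were Timp1, an inhibitor of matrix proteases (-0.78, -1.29 to -0.28), and Loxl3, a lysyl oxidase (-0.61, -0.81 to -0.41). Loxl3 lies beside the adaptor gene Dok1, which had the same ratio (-0.61), so their reads may be shared. In the TGF-beta list 1 of 32 was lower, the latency binding protein Ltbp2 (-0.60, -0.90 to -0.30), and 0 were higher (median -0.12, receptor-scaled -0.51). Ltbp2 was at -0.58 with loess, and 0 of the list were apart with loess or total counts. Fn1 (-0.20, -0.45 to 0.06) and connective tissue growth factor, listed as Ccn2 (-0.11, -0.29 to 0.07), were not apart. Fibroblast markers had 0 of 15 apart (median -0.27, receptor-scaled -0.65), and the myofibroblast list 2 of 14 lower and 0 higher (median -0.20, receptor-scaled -0.58).

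Runx1 had the lowest upper bound of all strong promoters, with 216 counts in TAC TSA, 541 in TAC Veh, 395 in Sham TSA and 367 in Sham Veh (-0.99, -1.22 to -0.76). The other 4 promoters of the RUNX list were not apart (list median -0.18, receptor-scaled -0.57). Dio2, the enzyme that activates thyroid hormone, had 18.7 scaled CPM in TAC TSA, 28.8 in TAC Veh, 18.0 in Sham TSA and 14.3 in Sham Veh (-0.63). It was the 1 of 12 thyroid and steroid promoters that was lower, and 0 were higher (median -0.08, receptor-scaled -0.46). Garem2 (-0.75, -1.09 to -0.41) and its neighbour 3110082J24Rik (-0.73, -1.06 to -0.41) were lower together.

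Leukocyte and complement promoters made up a second lower group. Of 23 macrophage and monocyte promoters 0 were higher and 2 lower (median -0.29, receptor-scaled -0.67). C1qb, a chain of the first complement component made by macrophages, had 19.6 scaled CPM in TAC TSA, 35.8 in TAC Veh, 40.4 in Sham TSA and 29.5 in Sham Veh (-0.87, -1.22 to -0.52). Here TAC TSA was the low library of the 4. C1qa and C1qc, which encode the other chains, were not apart. Ctss, a lysosomal protease of antigen-presenting cells, had 14.9 in TAC TSA, 26.6 in TAC Veh, 19.2 in Sham TSA and 17.5 in Sham Veh (-0.84, -1.25 to -0.44). The complement and acute phase list had 2 of 21 lower and 0 higher (median -0.26, receptor-scaled -0.64), with the acute phase inhibitor Serpina3n (-0.77, -1.17 to -0.39) beside C1qb. Of 28 chemokine promoters 3 were lower and 1 higher (median -0.11, receptor-scaled -0.50). Lower were the chemerin receptor Cmklr1 (-0.62, -0.82 to -0.41) and the monocyte chemokines Ccl7 (-0.68, -1.12 to -0.26) and Ccl9 (-0.66, -1.19 to -0.16), and higher was the eosinophil attractant Ccl11 (0.66, 0.13 to 1.19). With loess scaling Ccl11 was at 0.44 and Cmklr1 at -0.53, and neither was apart.

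The TNF receptor Tnfrsf1b was the 1 of 30 cytokine and NF-kB promoters that was lower (-0.59, -0.80 to -0.39), and 0 were higher (median -0.15, receptor-scaled -0.54). Slfn2, of T cell quiescence, was at -0.66 (-0.90 to -0.44), and Tifa, an adaptor of NF-kB signalling, at -0.61 (-0.84 to -0.39). With loess scaling Tnfrsf1b was at -0.51, Slfn2 at -0.58 and Tifa at -0.53, and none was apart. In the lymphocyte list the leukocyte phosphatase Ptprc was lower (-0.65, -1.17 to -0.15) and Cd8a higher on 60 counts in TAC TSA and 49 in TAC Veh (0.63, 0.06 to 1.20), in a list of 20 with a median of 0.30 (receptor-scaled -0.09). Interferon (30 promoters, median -0.17) and MHC genes (20 promoters, median -0.15) had 0 apart in either direction, with receptor-scaled medians of -0.55 and -0.53. Among strong promoters outside the lists, and named after their values were seen, were the leukocyte genes Ikzf1 (-0.71), Lcp2 (-0.72), Fyb (-0.74), Itga4 (-0.71), Mpeg1 (-0.68) and Clec4a1 (-0.74). Hyaluronan synthase Has2 (-0.61) was lower too.

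Windows of 2 lower genes are also shown. They lie at chr4:58206547-58206846 for Svep1 and chr4:136886151-136886450 for C1qb, both on the minus strand of GRCm38.p6. Neither holds MEF2 letters or a CArG box. The muscle windows above were picked for the letters they hold, so a contrast with them comes in part from that choice. The window of Kcnj3, which was also higher, holds no MEF2, CArG, TATA or MCAT letters. Capitals again mark the TATA and MCAT letters, of which the C1qb window has none.
Svep1: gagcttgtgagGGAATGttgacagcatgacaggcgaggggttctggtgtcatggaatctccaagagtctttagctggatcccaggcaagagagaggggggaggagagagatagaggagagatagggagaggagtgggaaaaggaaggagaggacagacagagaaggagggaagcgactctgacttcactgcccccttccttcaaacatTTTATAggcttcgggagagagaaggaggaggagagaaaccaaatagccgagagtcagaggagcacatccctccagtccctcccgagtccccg
C1qb: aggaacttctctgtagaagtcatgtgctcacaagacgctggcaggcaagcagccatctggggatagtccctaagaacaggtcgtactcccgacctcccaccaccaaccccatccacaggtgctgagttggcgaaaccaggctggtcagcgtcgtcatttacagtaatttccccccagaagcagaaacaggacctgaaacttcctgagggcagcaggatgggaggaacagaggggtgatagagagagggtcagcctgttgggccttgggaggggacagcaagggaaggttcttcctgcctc

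In a whole-ventricle preparation, fewer nuclei of a cell type and less acetylation per nucleus cannot be told apart. Of 15 cardiomyocyte markers, all of which also stand in another list above or below, 12 were apart and higher and 0 lower (median 0.68, receptor-scaled 0.30). Their summed level was 973 scaled CPM in TAC TSA, 586 in TAC Veh, 968 in Sham TSA and 849 in Sham Veh. The 15 fibroblast markers summed to 601 in TAC TSA, 698 in TAC Veh, 632 in Sham TSA and 611 in Sham Veh. The 23 macrophage and monocyte markers summed to 579 in TAC TSA, 698 in TAC Veh, 710 in Sham TSA and 606 in Sham Veh. Endothelial markers had 0 of 20 apart (median 0.04, receptor-scaled -0.34), and smooth muscle and pericyte markers 0 of 15 (median -0.05, receptor-scaled -0.43). No marker in these lists was at 0 in any library, and the part of cell composition in the results was not tested.

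**Figure D4:**
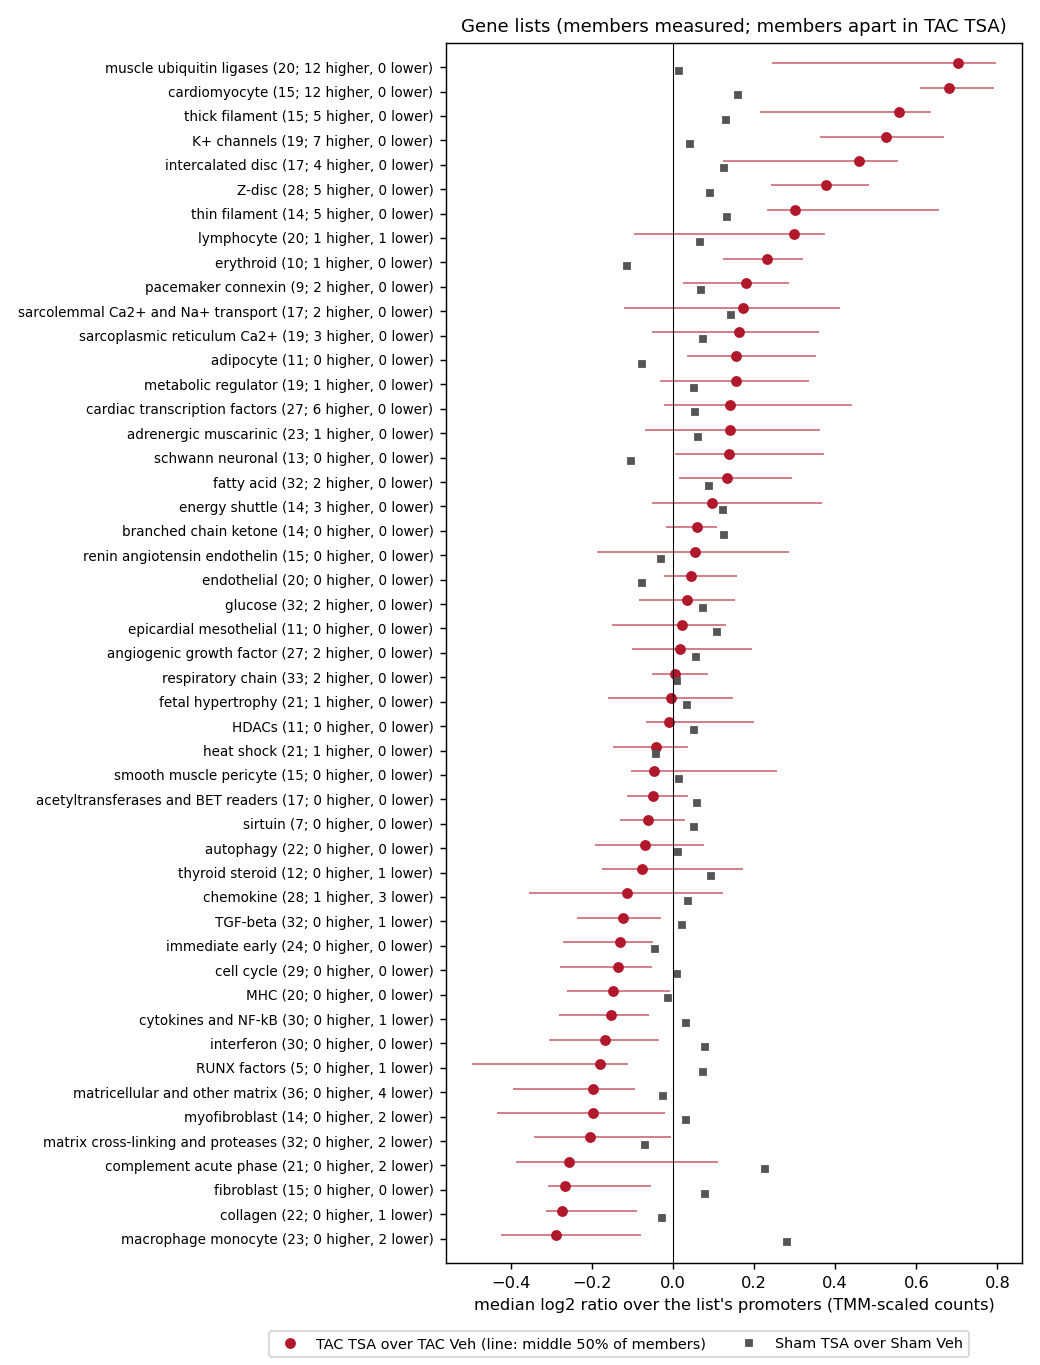
Each row is a gene list, with the number of promoters measured and the number apart in TAC TSA over TAC Veh in its label. Red circles are the median log2 ratio of TAC TSA over TAC Veh with the middle 50% of members as a line, and grey squares the median of Sham TSA over Sham Veh. Muscle lists lie to the right (muscle ubiquitin ligases 0.70) and macrophage, collagen and fibroblast lists to the left (-0.29, -0.27 and -0.27).

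Genes of the HDACs and of the hypertrophic response were not apart for the most part. None of the 11 HDAC promoters was apart (median -0.01, receptor-scaled -0.39). The ratios ran between -0.25 for Hdac1 (-0.49 to -0.01) and 0.43 for Hdac9 (0.13 to 0.73), a class II enzyme of muscle. Hdac9 had 37.9 scaled CPM in TAC TSA, 28.1 in TAC Veh, 45.7 in Sham TSA and 33.3 in Sham Veh, so both TSA libraries were above both vehicle libraries. Sirtuins (0 of 7 apart, median -0.06, receptor-scaled -0.45) and acetyltransferases with BET readers (0 of 17 apart, median -0.05, receptor-scaled -0.43) stayed near the bulk of promoters. In the fetal and hypertrophy list 1 of 21 was higher, Corin, the protease that activates natriuretic peptides (0.64, 0.37 to 0.92), and 0 were lower (median -0.01, receptor-scaled -0.39). Nppa, the atrial natriuretic peptide, had 20.8 in TAC TSA, 21.5 in TAC Veh, 12.6 in Sham TSA and 15.9 in Sham Veh (-0.05, -0.43 to 0.33). Nppb, the B-type peptide, had 34.7 in TAC TSA, 26.9 in TAC Veh, 23.7 in Sham TSA and 17.4 in Sham Veh (0.37, 0.06 to 0.68). For both peptides each TAC library was above each sham library. Klf4, an antihypertrophic factor, was at -0.21 (-0.34 to -0.08), and the phosphatase gene Inpp5f, known as a mediator of HDAC2 in hypertrophy, at 0.09 (-0.16 to 0.34).

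In 4 further lists 1 or 2 members were apart and higher, beside 4.06% of all promoters and 1.16% of strong ones. Erbb4, the neuregulin receptor of heart muscle (0.76, 0.46 to 1.08), and Fgf13 (0.83, 0.27 to 1.41) were higher of 27 growth factor promoters (median 0.02, receptor-scaled -0.37). Adra1a, an alpha-adrenergic receptor, was higher of 23 adrenergic and muscarinic promoters (0.73, 0.37 to 1.09; median 0.14, receptor-scaled -0.24). Hspb3, a small heat shock protein of muscle, was higher of 21 (0.78, 0.44 to 1.12; median -0.04, receptor-scaled -0.43), and Epb42, of red cells, was higher of 10 erythroid promoters on 65 counts in TAC TSA and 49 in TAC Veh (0.74, 0.19 to 1.31; median 0.23, receptor-scaled -0.15). With 0 apart in either direction stood 24 immediate early (median -0.13), 29 cell cycle (-0.14), 22 autophagy (-0.07), 14 branched chain and ketone (0.06) and 15 renin, angiotensin and endothelin promoters (0.05). The adipocyte (11), Schwann and neuronal (13) and epicardial (11) marker lists had 0 apart as well.

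TSA in sham ventricles gave far fewer strong promoters apart. In Sham TSA over Sham Veh, which shares no library with the TAC pair, 11 of the 15669 strong promoters were higher (0.0702%) and 8 lower (0.0511%). Over all 22835 promoters 133 were higher and 132 lower in the sham pair, beside 927 higher and 78 lower in the TAC pair. On the lower side the sham pair thus had more apart. The 182 strong promoters higher in the TAC pair had a median log2 ratio of 0.72 there and 0.13 in the sham pair. In the sham pair 141 of the 182 were above 0, beside 8331 of all 15669 strong promoters, and 0 were apart. Over all 15669 strong promoters the 2 ratios had a Pearson r of -0.001 and a Spearman rho of -0.03, given as a description across promoters, which are not replicates. The difference between the TAC and sham pairs was not tested, since each is 1 library over 1 library.

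The 43 strong promoters lower in the TAC pair had a median of -0.68 there and 0.05 in the sham pair. In the sham pair 26 of the 43 were above 0, a share near that over all strong promoters, and 2, Mir21a and Serpina3n, were apart and higher. Mir21a was at 0.67 (0.48 to 0.87) in Sham TSA over Sham Veh and Serpina3n at 0.94 (0.56 to 1.34), opposite to their direction in the TAC pair.

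**Figure D5:**
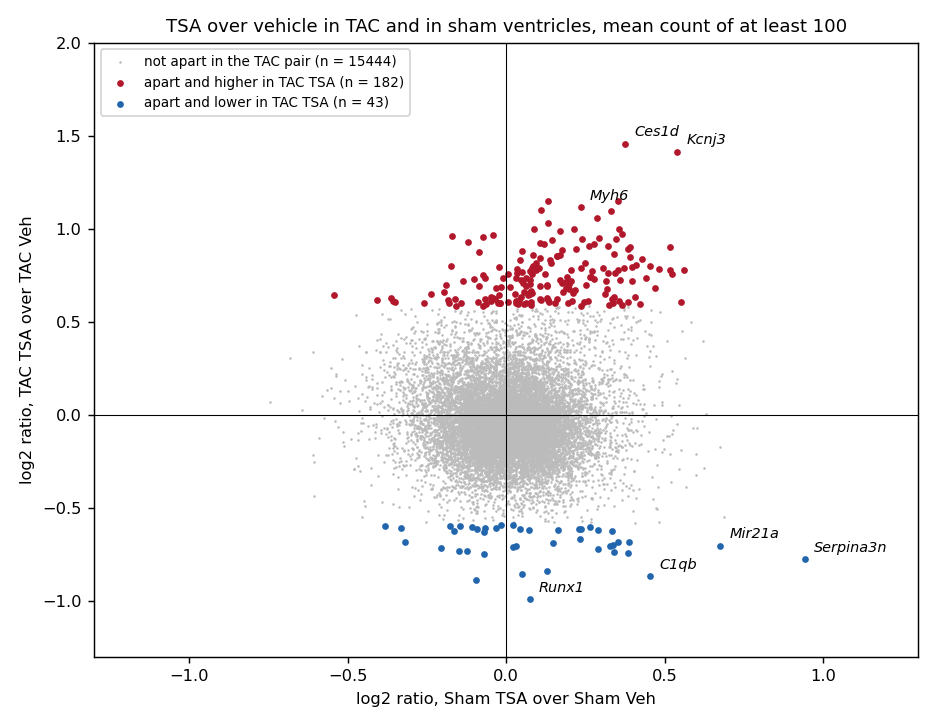
Each point is a strong promoter, with its log2 ratio of Sham TSA over Sham Veh on the x axis and of TAC TSA over TAC Veh on the y axis. The 182 red points (higher in the TAC pair) and 43 blue points (lower) run between -0.54 and 0.56 and between -0.38 and 0.94 on the x axis, with Mir21a and Serpina3n at 0.67 and 0.94.

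The place of the 2 TAC libraries among all 4 is in part fixed by the choice of promoters on TAC TSA over TAC Veh, and is given as a description. At the 182 strong higher promoters TAC TSA had the highest scaled level of the 4 libraries at 120 and TAC Veh the lowest at 173. Over all 15669 strong promoters TAC TSA was highest at 2354 and TAC Veh lowest at 3933. At the 43 strong lower promoters TAC TSA was lowest at 36 and TAC Veh highest at 36. Over all strong promoters TAC TSA was lowest at 7303 and TAC Veh highest at 3872. TAC Veh over Sham Veh had a median of -0.47 at the 182 and of 0.42 at the 43, but this ratio holds the same TAC Veh library, so it is not independent of the choice of promoters. Whether TAC Veh or TAC TSA accounts for a given ratio cannot be told apart from the spread between animals with 1 library each.

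Sequence features differed between the groups of promoters, but GC content goes with count strength, which the rule does use. Windows of 300 bases were taken for genes with 1 RefSeq window, namely 104 strong higher, 27 strong lower and 9613 strong promoters in all. The median GC content was 54.8% in higher, 52.3% in lower and 60.7% in all strong windows, and the median number of CpG was 6 in higher, 6 in lower and 20 in all strong windows. In 5 equal GC bins of strong windows the median mean count was 260.5 in the lowest bin and 444 in the highest. The strong higher and lower promoters had median mean counts of 188 and 179, beside 364.5 over all strong promoters. The part of count strength in these features was not tested. MEF2 letters were in 15 of 104 higher windows (14.4%), in 0 of 27 lower windows and in 165 of 9613 strong windows (1.72%). The MEF2 motif is rich in A and T, and in the lowest of 5 equal GC bins of strong windows it was in 11 of 45 higher windows (24.4%) and in 100 of all 1923 (5.20%). Read the other way, 15 of the 165 strong promoters with MEF2 letters were apart and higher (9.09%), beside 89 of the 9448 without them (0.942%), and the median log2 ratio was 0.02 with the letters and -0.06 without. Most promoters with these letters were therefore not apart.

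The 15 genes were Asb14, C130080G10Rik, Clcn1, Gm15179, Hspb3, Klhl41, Lrrc14b, Lrrc39, Mybpc3, Pgam2, Ppp1r3a, Tbx3os2, Tnni3k, Ttn and Xirp2. The GC box (GGGCGG), known from housekeeping promoters, was in 37.5% of higher, 37.0% of lower and 63.3% of all strong windows. The E-box CAGCTG was in 26.9% of higher, 33.3% of lower and 15.8% of all strong windows. The TATA letters were in 16.3% of higher, 14.8% of lower and 7.53% of all strong windows, and the GGAATG letters in 18.3% of higher, 22.2% of lower and 12.2% of all strong windows. The GATA letters AGATAA were in 10.6% of higher, 14.8% of lower and 6.24% of all strong windows, and the RUNX letters TGTGGT in 14.4% of higher, 11.1% of lower and 12.4% of all strong windows. CArG letters were in 1.92% of higher, 3.70% of lower and 1.33% of all strong windows. Lower GC content and fewer CpG than in strong windows at large were thus shared by both groups, and with TMM scaling 4 of the motifs searched were in some higher windows and in 0 of the 27 lower ones. Besides MEF2 these were the AP-1 letters, in 8 of 104 higher windows (7.69%) and 4.56% of all strong windows, the T-box motif, in 3 higher windows (2.88%) and 0.84% of all strong windows, and the NRF1 motif, in 1 higher window (0.96%) and 1.90% of all strong windows. The 27 lower windows are too few to set 0 matches against shares this small, so no contrast is drawn from the 0. With loess scaling 3 of 42 lower windows (7.14%) held MEF2 letters, beside 13 of 94 higher (13.8%). AP-1 letters were then in 1 of 42 lower and 4 of 94 higher windows, and the NRF1 motif in 1 of 42 lower and 1 of 94 higher. A match is a run of letters in a window and not a site in use.

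The authors also deposited lists of regions that differ between the 2 libraries, called along the genome and not at promoters alone. The authors' deposited list of higher regions, for TAC TSA against TAC Veh, holds 2164 regions with a median length of 653 bases, and the list of lower regions 3420 with a median of 1058.5 bases. Regions of at least 1 kb made up 24.8% of the higher and 53.7% of the lower list, and the summed length was 2011708 bases in the higher and 4800893 in the lower list. Thus the lower list was the longer one, whereas with TMM scaling more promoters were apart on the higher side (927 higher, 78 lower). With receptor scaling more were apart on the lower side (100 higher, 3289 lower). The top score, the caller's own value, was 345.88 for the higher region chr13:74665800-74668640 and 281.16 for the lower region chr4:46463011-46466647, both in mm9 coordinates. No gene annotation of that build was used here, so the regions are not assigned to genes.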

How the data were processed

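Chromatin from mouse left ventricle was precipitated with an antibody to acetylated histone H3 and sequenced, 1 library in each of the 4 groups TAC TSA, TAC Veh, Sham TSA and Sham Veh. Per the labels' protocols, chromatin was fixed for 10 min in 1% formaldehyde and libraries of about 250 bp had 15 PCR cycles. The authors deposited raw counts of reads in the promoter of every RefSeq ID, and lists of regions that differ between library pairs, whose score is the peak caller's own value in the deposited lists. BWA 0.5.9, MACS 1.4.1 and the build mm9 are named per the submitters' processing notes. The sources used here do not give their roles, the promoter window, the counting tool, how duplicates were treated or whether an input was used.

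RefSeq IDs were matched to gene symbols, and 479 unmatched IDs with 1.11% of counts were left out. The ID with the highest mean count stood for each gene. Promoters with a mean of at least 10 counts were kept. Libraries were scaled by TMM (edgeR 4.0.16, R 4.3.3), and scaled CPM are counts over the scaled library size. Each log2 ratio has an exact conditional 95% interval, and apart means at least 1.5-fold with an interval that excludes 1. PCR reads without molecular identifiers are not independent molecules, so intervals cover counting error only. No test between conditions was made, since each group is 1 library and a pooled treatment term would assume the same effect in TAC and sham. Promoter totals were 6842296 to 9905553 a library. Alternatives were DESeq2 1.42.0 size factors, total counts, scaling on receptor promoters, loess on mean count (limma 3.58.1), a 2-fold threshold, other count filters and every RefSeq ID. Scripts ran in Python 3.11.15 (scipy 1.17.1, pandas 2.3.3, numpy 2.4.6; figures with matplotlib 3.10.9) and were tested on simulated data.

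Named promoters were the 15 strong ones with the highest lower bound, the 15 with the lowest upper bound, up to 4 apart members of each list in each direction with the bound farthest from 0, a set of muscle, matrix and HDAC genes, and those nearest the count minimum. Further genes that are apart in a list are named after their values were seen. The promoters and lists were chosen with earlier results of these data known. Sequences are from RefSeq on GRCm38.p6, not the build of the files. Besides the letters given in the results, both strands were searched for the Nkx2-5 letters AAGTG, for the general E-box CANNTG, of which CAGCTG is a form, for the AP-1 letters TGANTCA, for the box named after CCAAT, and by name the MEF2, CArG, T-box, CRE, ERR, ETS, ISRE and NRF1 motifs.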

Additional observations from a re-analysis of the deposited data

Results flagged for a closer look

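At 3 of the named promoters TSA went with opposite directions in the TAC and sham pairs, each apart in its pair. The difference between the pairs was not tested, since each is 1 library over 1 library. Mir21a, a microRNA of fibroblasts and injury, was at -0.70 on the log2 scale in TAC TSA over TAC Veh and at 0.67 in Sham TSA over Sham Veh, on 259 counts in TAC TSA, 532 in TAC Veh, 566 in Sham TSA and 347 in Sham Veh. Ptprc, the leukocyte phosphatase, was at -0.65 in the TAC pair and 0.64 in the sham pair, on 50 counts in TAC TSA, 99 in TAC Veh, 118 in Sham TSA and 74 in Sham Veh. Serpina3n, an acute phase inhibitor, was at -0.77 in the TAC pair and 0.94 in the sham pair, on 82 counts in TAC TSA, 177 in TAC Veh, 169 in Sham TSA and 86 in Sham Veh. In each case the scaled level was highest in TAC Veh or Sham TSA, and all 3 kept these calls with loess and with receptor scaling. Of all 22835 promoters, 7 were lower in the TAC pair and higher in the sham pair, and 12 the reverse.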

How the results depend on the processing

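The number of promoters apart depended on the scaling. Of all promoters 927 were higher and 78 lower with TMM. The higher count was 311 with loess, 100 with receptor scaling, 289 at 2-fold and 182 with a mean count of at least 100. The lower count was 253 with loess, 3289 with receptor scaling, 50 with total counts, 2 at 2-fold and 43 with a mean count of at least 100. Among strong promoters, 182 higher became 14 with receptor scaling and 9 at 2-fold, and 43 lower became 2859 with receptor scaling, 26 with total counts and 0 at 2-fold. List members higher (69) became 5 with receptor scaling and 4 at 2-fold, and those lower (18) became 199 and 0, and 12 with total counts. These 6 counts stayed within 1.5 times under the other alternatives, but counts of single lists moved more, such as adrenergic promoters with 1 higher with TMM and 3 with total counts. Of 84 named promoters apart, 83 were still apart with DESeq2 size factors, 76 with total counts, 70 with loess and 35 with receptor scaling. With loess 0 changed direction. With the other settings none could, since every log2 ratio moves by less than the 1.5-fold of the rule. The move is 0.008 with DESeq2 size factors, 0.038 with total counts and -0.38 with receptor scaling. Which scaling fits was not tested. No paired analysis was possible because each group has 1 library, so no library could be left out either. Overlaps between the authors' region lists were not run, since those lists share libraries.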
